A study of Homo sapiens with 6 samples.

Results

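The RB pathway decides whether a cell passes from G1 into S phase, and 10 of its genes were followed among the 28395 genes counted in a triple-negative breast cancer line and its paclitaxel-exposed derivative. They were taken by name: the pocket proteins RB1, RBL1 and RBL2, the inhibitors CDKN2A and CDKN1B, the cyclins CCND1 and CCNE1, the kinases CDK4 and CDK6, and the transcription factor E2F1. The resistant group was MDA-MB-468-PR, a single derivative of MDA-MB-468 kept for 2 months in 3 to 4.5 nM paclitaxel, which stabilises microtubules. The control group was MDA-MB-468 itself, and the treatment label of each of the 6 samples reads Untreated. Each group had 3 libraries, of which replicate 1 carries a 2020 batch date and replicates 2 and 3 a 2021 date. All resistant libraries came from 1 derivative, so drug exposure and other changes specific to that derivative cannot be told apart.

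In G1, cyclin D bound to CDK4 or CDK6, and then cyclin E bound to CDK2, phosphorylate the pocket proteins, which release E2F factors to switch on genes of DNA synthesis. CDKN2A encodes p16INK4a, which blocks CDK4 and CDK6, and from another first exon p14ARF, which acts on the p53 pathway, while CDKN1B encodes p27, which blocks cyclin E with CDK2. MDA-MB-468 is known as an RB1-deficient line, and cells without RB1 commonly hold high p16INK4a and do not depend on CDK4 and CDK6.

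Totals ran from 37889818 to 93680129 counts in the resistant libraries and from 41343499 to 66475627 in the control libraries. A zero has an upper bound of 3 counts at 95% confidence, for counting error alone. That bound stood for 0.0311 to 0.0808 CPM (counts relative to library size, scaled by TMM). Of 8 basal breast carcinoma markers, all averaged 1 CPM or more, and their sum was 6695 to 9460 CPM in resistant and 4634 to 7174 CPM in control libraries, most of it EGFR. Within that list EGFR averaged 5964 CPM in resistant and 3775 CPM in control libraries, and KRT14 averaged 7.01 CPM in resistant and 28.2 CPM in control libraries. Among hormone receptor and ERBB2 markers PGR had no count, ESR1 averaged 1.64 CPM in resistant and 2.12 CPM in control libraries, and ERBB2 averaged 105 CPM in resistant and 117 CPM in control libraries. The summed level of 4 leukocyte markers was 2.89 to 4.26 CPM in resistant and 2.14 to 2.54 CPM in control libraries, and CD68 alone of them averaged over 1 CPM. The 3 endothelial markers summed to 2.21 to 3.74 CPM in resistant and 2.05 to 3.26 CPM in control libraries. The 4 fibroblast markers summed to 22.5 to 26.2 CPM in resistant and 23.2 to 30.5 CPM in control libraries, nearly all of it COL1A1, with LUM at 0. SMAD4, which this line is known to have lost, had 51, 0 and 0 counts in resistant replicates 1 to 3 and 69, 2 and 1 in control replicates 1 to 3. Both libraries of 2020 thus held SMAD4 reads where those of 2021 held 0 to 2, a step that runs along with the batch differences given below, and its part in them was not tested.

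All 10 genes passed the filter on low counts, and 2 of them differed between the lines. CDK6 rose and E2F1 fell in the resistant line, at a Benjamini-Hochberg adjusted p under 0.05 over all tested genes in edgeR's quasi-likelihood fit, which included the batch. In the same fit 11.7% of 13950 genes were called, 6.23% as higher and 5.48% as lower. With 10 genes, 2 calls are close to that background. Without resistant replicate 3 the calls over all genes numbered 617 in place of 1633, without resistant replicate 2 they numbered 851, without resistant replicate 1 1001 and without control replicate 1 1064. For none of the 10 were the resistant and control libraries separated without overlap, whereas 20.9% of all tested genes were, 10.7% with resistant libraries higher and 10.2% with them lower. The batches overlaid the groups, as the plot of each library shows.

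**Figure D1:**
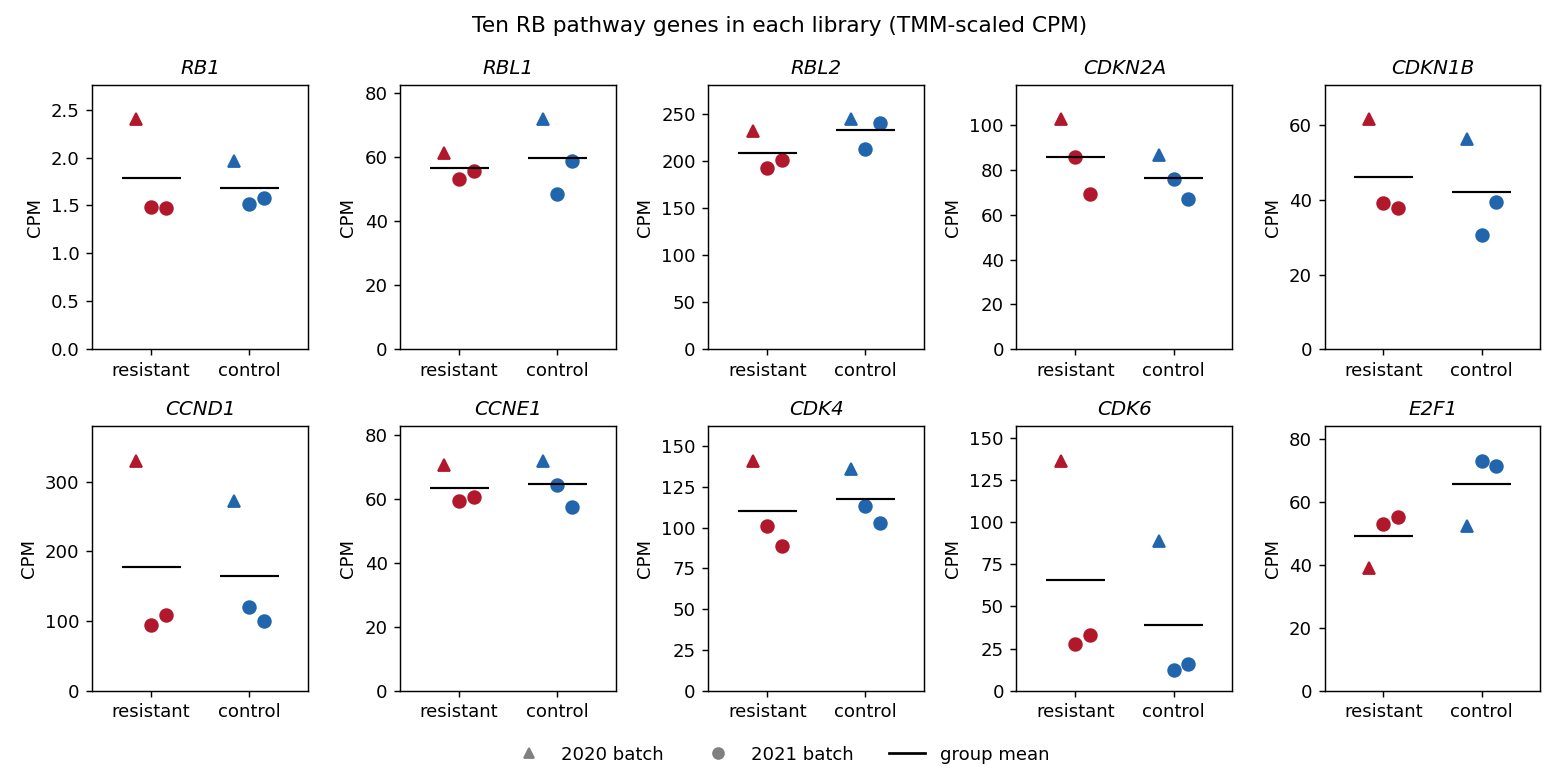
Levels of the 10 genes in every library, as TMM-scaled CPM on axes that start at 0, with resistant libraries left of control libraries. Triangles are the 2020 batch, circles the 2021 batch and black lines the group means. The CDK6 level was 136 CPM in the resistant and 88.7 CPM in the control library of 2020, far above the 2021 libraries of both lines.

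Among the pocket protein genes, RB1, which encodes the retinoblastoma protein, had a very low RNA level in both lines. Protein was not measured. RB1 (Entrez gene 5925, chromosome 13, 48303751 to 48481890, GRCh38) had 89, 99 and 142 counts in resistant replicates 1 to 3 and 79, 85 and 107 counts in control replicates 1 to 3. That was 2.40, 1.49 and 1.47 CPM in the resistant libraries and 1.96, 1.52 and 1.58 CPM in the control libraries, and the 2020 library was the highest of each group. The mean was 1.79 ± 0.529 CPM in resistant and 1.69 ± 0.241 CPM in control libraries (SD, n = 3 each). RB1 was not called (log2 fold change 0.05 ± 0.22 SE, adjusted p = 0.913) and its sign differed by batch, with log2 differences of 0.28 for 2020 and -0.06 for 2021.

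The low level was shared by genes beside RB1. LPAR6, a lysophosphatidic acid receptor gene that lies inside RB1, had no count in any of the 6 libraries. RCBTB2, the next gene with counts, averaged 1.06 CPM in resistant and 0.892 CPM in control libraries. CYSLTR2, a leukotriene receptor gene that many cells do not express, had no count either. On the other side ITM2B, a membrane protein gene, averaged 93.8 CPM in resistant and 85.0 CPM in control libraries. Per kilobase of coding sequence, RB1 was at 0.599 CPM in resistant and 0.566 CPM in control libraries, and RCBTB2 at 0.619 CPM in resistant and 0.522 CPM in control libraries. ITM2B was at 118 CPM per kilobase in resistant and 107 CPM per kilobase in control libraries. FNDC3A, beyond CYSLTR2, was at 22.7 CPM per kilobase in resistant and 21.1 CPM per kilobase in control libraries. Of the 10 nearest protein-coding genes in the file, 6 could be tested and none was called with edgeR, where 1 had an unadjusted p under 0.05, nor with DESeq2 or limma voom.

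**Figure D2:**
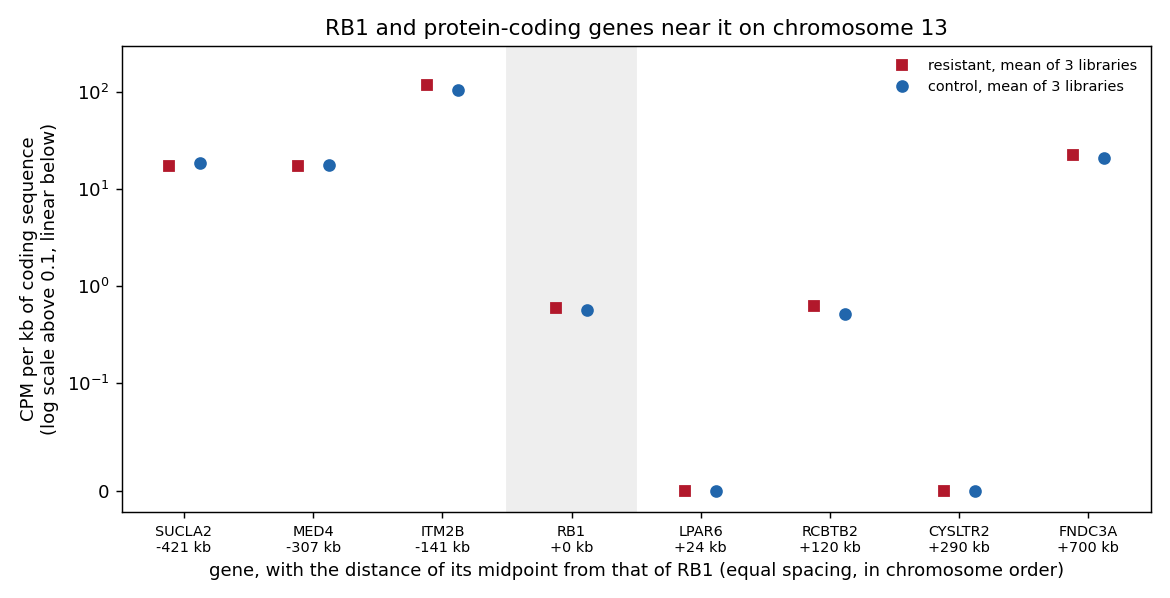
Mean level of RB1 and of 7 protein-coding genes near it, in CPM per kilobase of coding sequence, on a scale that is logarithmic above 0.1 and linear below. Squares are resistant and circles control libraries, and genes are in chromosome order with equal spacing. RB1 and RCBTB2 sat between 0.522 and 0.619 in both lines, while SUCLA2, MED4, ITM2B and FNDC3A sat at 17.3 or more.

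The relatives of RB1 were plentiful. RBL2, which encodes p130, the pocket protein of resting cells, had 232, 192 and 201 CPM in resistant replicates 1 to 3 and 244, 213 and 240 CPM in control replicates 1 to 3. The resistant values lay mostly under the control values, with overlap, and RBL2 was not called (log2 fold change -0.16 ± 0.11 SE, adjusted p = 0.376). AKTIP, which overlaps the end of RBL2, averaged 47.9 ± 9.30 CPM in resistant and 49.2 ± 10.2 CPM in control libraries. RBL1, which encodes p107 and is itself a known E2F target, had 61.1, 53.3 and 55.6 CPM in resistant replicates and 71.7, 48.5 and 58.8 CPM in control replicates. The resistant libraries all fell inside the range of the control libraries (log2 fold change -0.06 ± 0.11 SE, adjusted p = 0.755). Within a library, the RB1 level per kilobase of coding sequence was 0.0119, 0.00889 and 0.00845 times that of RBL2 in resistant replicates 1 to 3 and 0.00926, 0.00823 and 0.00756 times in control replicates 1 to 3. Both lines thus carried RB1 at about the same small share of RBL2.

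Among the inhibitors, neither gene was called. CDKN2A (chromosome 9, 21967752 to 21995324) had 102, 85.7 and 69.0 CPM in resistant replicates and 86.6, 75.7 and 67.2 CPM in control replicates. Counts per gene sum the p16INK4a and p14ARF transcripts, which cannot be separated here. CDKN2B-AS1, a non-coding gene that overlaps its start, averaged 0.610 CPM in resistant and 0.383 CPM in control libraries. The mean was 85.7 ± 16.7 CPM in resistant and 76.5 ± 9.74 CPM in control libraries (SD, n = 3 each), the groups overlapped, and the log2 fold change was 0.16 ± 0.11 SE (adjusted p = 0.411). CDKN2B, the neighbouring gene for the related inhibitor p15, averaged 16.3 ± 14.3 CPM in resistant and 15.4 ± 15.2 CPM in control libraries (adjusted p = 0.360). Of the 10 nearest protein-coding genes of CDKN2A, 5 could be tested and 1 was called, the neuronal RNA-binding protein gene ELAVL2, which rose by 1.53 on the log2 scale (adjusted p = 0.00944). Its call ended without resistant replicate 3 (adjusted p = 0.0534). CDKN1B had 61.5, 39.2 and 37.9 CPM in resistant replicates and 56.4, 30.6 and 39.4 CPM in control replicates, with a log2 fold change of 0.14 ± 0.11 SE (adjusted p = 0.490). For CDKN1B the 2020 library was the highest in each group.

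Among the cyclins, CCND1, which encodes cyclin D1, stood far higher in 2020 than in 2021. It had 330.4, 93.9 and 109 CPM in resistant replicates 1 to 3 and 272, 121 and 101 CPM in control replicates 1 to 3. The library of 2020 was the high one in both groups, and the lines overlapped in 2021. The mean was 178 ± 132 CPM in resistant and 164 ± 93.7 CPM in control libraries (SD, n = 3 each), with a log2 fold change of 0.01 ± 0.13 SE (adjusted p = 0.968). CCNE1, which encodes cyclin E1, varied little between libraries. It had 70.7, 59.4 and 60.7 CPM in resistant replicates and 72.0, 64.3 and 57.6 CPM in control replicates (log2 fold change -0.02 ± 0.09 SE, adjusted p = 0.896).

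CDK6 was the gene that rose, and its partner kinase CDK4 was not called. CDK6 (Entrez gene 1021, chromosome 7, 92604921 to 92836573) had 136, 27.8 and 32.9 CPM in resistant replicates 1 to 3 and 88.7, 12.4 and 15.7 CPM in control replicates 1 to 3. In each batch every resistant library lay above every control library, but the control library of 2020 lay above the resistant libraries of 2021. The mean was 65.7 ± 61.3 CPM in resistant and 38.9 ± 43.1 CPM in control libraries (SD, n = 3 each), and the fitted difference was 1.92-fold (log2 fold change 0.94 ± 0.14 SE, adjusted p = 0.00475). The log2 difference was 0.62 in 2020 and 1.11 in 2021, and the difference between these was not tested. The call held without any one library (adjusted p 0.00112 to 0.0342) and ended without the batch term (0.827). Because CDK6 has a long untranslated end and these libraries were captured with exome probes, its level is set against other genes by coding length. CDK6-AS1, which overlaps its start, had 0 counts in resistant libraries and 0 to 1 in control libraries.

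CDK4 had 141, 101 and 88.6 CPM in resistant replicates and 136, 113 and 103 CPM in control replicates (log2 fold change -0.11 ± 0.11 SE, adjusted p = 0.561). Per kilobase of coding sequence, the CDK6 level was 0.899, 0.255 and 0.345 times that of CDK4 in resistant replicates 1 to 3 and 0.605, 0.102 and 0.141 times in control replicates 1 to 3. CDK6 therefore stayed below CDK4 in every library on this scale, and nearest to it in the resistant library of 2020. TSPAN31, a tetraspanin gene that overlaps CDK4, averaged 5.97 ± 1.32 CPM in resistant and 4.39 ± 1.28 CPM in control libraries (adjusted p = 0.181), and the sources used here do not say whether strand was used to part their reads.

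Of the 10 protein-coding genes nearest to CDK6, 7 could be tested, and both genes called were the first on one side. SAMD9 and SAMD9L, a pair of related interferon-inducible genes, rose by 1.02 and 1.18 on the log2 scale (adjusted p = 0.0106 and 0.0360). On the other side FAM133B, RBM48 and GATAD1 had log2 fold changes between 0.02 and 0.07 and were not called. Over the 20 nearest tested genes the median was 0.13, with 5 called higher and 1 lower. Without resistant replicate 3 the adjusted p of SAMD9 was 0.068. SAMD9L lost its call under the replicate block (adjusted p = 0.0604) and without each single library except control replicate 3 (up to 0.136).

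E2F1, the founding activator of the E2F family, was the gene that fell. E2F1 (Entrez gene 1869, chromosome 20, 33675477 to 33686385) had 38.9, 53.0 and 55.1 CPM in resistant replicates 1 to 3 and 52.1, 73.0 and 71.3 CPM in control replicates 1 to 3. Here the 2020 library was the lowest in each group, and in each batch the resistant values lay below the control values. The mean was 49.02 ± 8.79 CPM in resistant and 65.5 ± 11.6 CPM in control libraries (SD, n = 3 each). The fitted log2 fold change was -0.42 ± 0.09 SE (adjusted p = 0.0157), and it was -0.42 in each batch taken alone. Leaving out control replicate 1, or a resistant replicate, ended the call (adjusted p 0.0731 to 0.0969), while the log2 fold change stayed between -0.44 and -0.40. Of the 10 nearest protein-coding genes of E2F1, 7 could be tested and 1 was called, NECAB3, a calcium-binding protein gene, which fell by 0.45 on the log2 scale (adjusted p = 0.0182). NECAB3 lost its call in the same 4 settings (up to 0.0987).

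**Figure D3:**
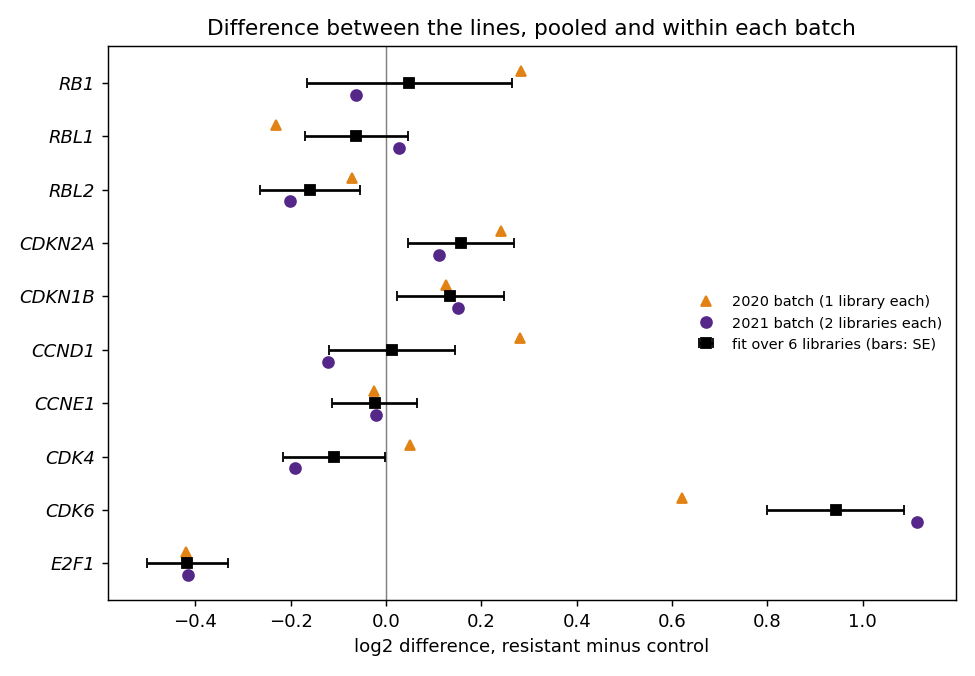
Log2 difference of resistant over control libraries for each of the 10 genes. Squares with bars are the fitted value and its SE over 6 libraries, triangles the difference in the 2020 batch and circles that in the 2021 batch. E2F1 stood at -0.42 in all 3 readings, CDK6 lay between 0.62 and 1.11, and RB1, RBL1, CCND1 and CDK4 changed sign between batches.

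The sequences before the starts of E2F1 and RBL1 are shown as those of known E2F targets, of which 1 was called and 1 was not. They were also the only members whose windows held the letters searched for. The window of CCNE1, another known E2F target, held none, so the pair shown does not stand for E2F targets at large. The sequence of CDK6 is shown because it was the gene that rose. Each sequence is the 250 bases before the start, 5′ to 3′ on the gene's strand, from RefSeq (GRCh38.p14). RefSeq held windows for 9 of the 10 genes and none for CCND1. The window of RB1 lies 172699 bases into the gene and was not used. E2F1 is at chr20:33686386-33686635, RBL1 at chr20:37095998-37096247 and CDK6 at chr7:92836574-92836823, all on the minus strand. Capitals mark the E2F-type letters TTTCCCGC, TTTGGCGC, TTTCGCGC and TTTGCCGC, searched on both strands.
E2F1: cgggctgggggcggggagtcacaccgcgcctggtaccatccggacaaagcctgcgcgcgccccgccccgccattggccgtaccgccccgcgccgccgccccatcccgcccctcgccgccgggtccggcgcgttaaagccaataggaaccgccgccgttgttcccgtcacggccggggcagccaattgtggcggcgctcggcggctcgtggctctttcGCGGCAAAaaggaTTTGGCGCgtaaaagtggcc
RBL1: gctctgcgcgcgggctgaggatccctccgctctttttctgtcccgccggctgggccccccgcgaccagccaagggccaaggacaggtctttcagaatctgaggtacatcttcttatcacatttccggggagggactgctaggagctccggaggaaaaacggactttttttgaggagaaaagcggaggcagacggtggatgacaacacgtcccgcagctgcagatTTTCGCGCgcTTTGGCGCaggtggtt
CDK6: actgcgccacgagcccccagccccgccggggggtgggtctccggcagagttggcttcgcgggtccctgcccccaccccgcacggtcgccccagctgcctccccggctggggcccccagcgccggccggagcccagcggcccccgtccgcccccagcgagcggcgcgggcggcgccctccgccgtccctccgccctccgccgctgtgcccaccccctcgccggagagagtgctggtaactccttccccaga
E2F1 and RBL1 each held 2 such matches, which do not overlap, within 33 bases of the start, and none was found in the windows of CDK6, CDKN2A, CDKN1B, CDK4, RBL2 and CCNE1. The letters occurred in 2.79% of all 35116 windows of this length and in 4.06% of the windows of tested genes. In the windows of the G1/S genes described below they occurred in 9 of 32. Of 616 tested genes with a match 7.47% were called lower and 3.08% higher, against 5.74% and 6.40% of 10473 tested genes without one. These letters are a description of the windows and do not show binding.

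The order of levels per kilobase of coding sequence was similar in both lines. In resistant libraries CCND1 led at 201 ± 149 CPM per kilobase, before CDK4 at 121 ± 30.1, CDKN2A at 108 ± 21.03, CDK6 at 67.2 ± 62.7, CDKN1B at 63.0 ± 18.1, RBL2 at 60.7 ± 6.10 and CCNE1 at 51.7 ± 5.05 (SD, n = 3). E2F1 followed at 37.4 ± 6.71, RBL1 at 17.6 ± 1.25 and RB1 at 0.599 ± 0.177 CPM per kilobase. Each gene from CCND1 to RBL2 overlapped the next in its range over libraries, while CCNE1, E2F1 and RBL1 were each clear of the one after. The place of CDK6 rested on the library of 2020: it was in place 3 at 139 CPM per kilobase in the resistant library of 2020 and in place 8 at 28.4 and 33.6 CPM per kilobase in those of 2021. In control libraries it was in place 4 in 2020 and in place 9 in both libraries of 2021. By the mean over control libraries the first 3 were the same, and CDK6, at 39.8 ± 44.1 CPM per kilobase, was in place 8, behind RBL2, CDKN1B, CCNE1 and E2F1. By exon length, which counts the long untranslated end of CDK6, that gene was in place 9 in the resistant libraries.

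The batch moved more of the 10 genes than the line did. In the same fit 5 of them differed between the 2021 and the 2020 libraries, where 22.9% of all tested genes did, and 4 were lower in 2021, where 11.4% of all tested genes were. The log2 fold change of 2021 over 2020 libraries was -2.42 for CDK6 (adjusted p = 6.79e-05), -1.504 for CCND1 (0.000459), -0.68 for CDKN1B (0.00759) and -0.45 for CDK4 (0.0238). E2F1 was higher in 2021 (log2 fold change 0.47 ± 0.09 SE, adjusted p = 0.0117). RB1, RBL1, RBL2, CDKN2A and CCNE1 had log2 values between -0.52 and -0.17 and did not pass. Since the 2020 batch held 1 library of each line and the replicate number, the date and the SMAD4 reads move together, these cannot be told apart.

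Genes whose level ran most like that of the called pair over the 6 libraries were searched among 10494 other genes that averaged 5 CPM or more. For CDK6 these were SYF2 and KDM5A (Pearson r = 0.999 each on log2 CPM), and for E2F1 RAB5B and SNTB2 (r = 0.998 and 0.996). The 6 libraries fall into the same 2 batches for all of them, and none of the 4 genes was called between the lines.

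The rest of the pathway was described by 8 lists, which hold 94 genes besides the 10. Of 90 that could be tested, 2 were higher and 10 lower in the resistant line, against 6.23% and 5.48% of all tested genes. Their median log2 fold change was -0.11, against -0.00391 over all tested genes. With the replicate number as a block, 7 of the 90 were called, 1 higher and 6 lower. Without resistant replicate 2 there were 5, and without resistant replicate 3 there were 4.

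The 24 genes listed as switched on by E2F at the G1/S border leaned lower, though few passed with edgeR. Of 24 measured members 23 had a log2 fold change below 0, where 50.6% of all tested genes did, and the median was -0.24. The median was -0.13 in 2020 and -0.29 in 2021. The number called depended on the tool. With edgeR 11 had an unadjusted p under 0.05 and 3 were called, and limma voom called 3. DESeq2 called 8, all lower, where it called 15.8% of all tested genes in either direction. The 3 called with edgeR were all lower: POLA1, the catalytic subunit of DNA polymerase alpha, MCM3, a subunit of the replicative helicase, and GINS2, which joins that helicase. POLA1 had 110, 95.3 and 101 CPM in resistant replicates and 220, 217 and 192 CPM in control replicates (log2 fold change -1.04 ± 0.10 SE, adjusted p = 0.00119). MCM3 had 163, 183 and 173 CPM in resistant replicates and 301, 359 and 316 CPM in control replicates (log2 fold change -0.91 ± 0.11 SE, adjusted p = 0.00220). In both, every resistant library lay far below every control library. GINS2 averaged 32.0 ± 2.03 CPM in resistant and 42.9 ± 8.54 CPM in control libraries (adjusted p = 0.0434). GINS2 lost its call when replicate 2 or 3 of either line was left out (up to 0.198) and under the replicate block (0.0664). The groups were separated without overlap in 8 of the 24, all lower, where 10.2% of all tested genes were so separated. The list was chosen with earlier results of these data known and leaves out other E2F targets. Of those, CCNE2, CCNE1, RBL1 and MYBL2 had log2 fold changes of 0.02, -0.02, -0.06 and -0.03, and E2F1 and CCNA2 -0.42 and -0.39. These are not all that were left out. In the other lists E2F8, FOXM1, E2F7 and SKP2 had log2 fold changes of -0.38, -0.32, -0.28 and -0.22. CDC25A, E2F2 and MYBL1 had -0.12, -0.11 and -0.01. None of the genes from E2F8 to MYBL1 was called. Genes around POLA1 and MCM3 were lower too, as given below.

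Other E2F factors and the genes listed with the G1 cyclins and kinases gave 3 calls, all lower. E2F3, an activator related to E2F1, was the one called of 9 E2F and DP factors (log2 fold change -0.35 ± 0.09 SE, adjusted p = 0.0432). The list median was -0.11. E2F3 averaged 49.8 ± 18.9 CPM in resistant and 64.4 ± 28.0 CPM in control libraries, and lost its call without each single library except control replicate 2 (adjusted p up to 0.205) and under the replicate block (0.0557). Of 7 tested genes in the list of G1 cyclins and kinases 2 were lower, and the list median was 0.01. That list also holds the S-phase cyclin CCNA2 and the phosphatase gene CDC25A. CCND3, which encodes cyclin D3, had 30.9, 23.8 and 23.7 CPM in resistant replicates and 43.7, 47.6 and 32.3 CPM in control replicates (log2 fold change -0.66 ± 0.15 SE, adjusted p = 0.0225). The groups did not overlap, and leaving out resistant replicate 2 or 3 ended the call (up to 0.124). CCNA2, the cyclin of S phase, fell by 0.39 on the log2 scale (adjusted p = 0.0497), a call that ended under the replicate block (0.077) and without each single library except control replicate 3 (up to 0.234). CCND2 and CDK3 had no count in any library. CDK7, the kinase that activates other CDKs, had 6 to 14 counts in resistant and 5 to 13 counts in control libraries, values that are uncertain because the handling of reads with several matches is not stated.

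Among the other CDK inhibitors, 2 of 5 tested genes were lower and none higher, with a list median of -0.34. CDKN2D, which encodes the INK4 protein p19, averaged 5.05 ± 1.605 CPM in resistant and 8.76 ± 2.15 CPM in control libraries (log2 fold change -0.82 ± 0.18 SE, adjusted p = 0.0226). CDKN2C, which encodes the INK4 protein p18, averaged 19.1 ± 3.69 CPM in resistant and 27.5 ± 2.16 CPM in control libraries (log2 fold change -0.54 ± 0.15 SE, adjusted p = 0.0483). Both proteins inhibit CDK4 and CDK6. CDKN2D lost its call when resistant replicate 2 or 3 was left out (up to 0.116), and CDKN2C without either or without control replicate 2 (up to 0.19) and under the replicate block (0.072). Upper quartile scaling, and a minimum mean of 1 CPM, also ended the calls of E2F3, CCNA2, CDKN2C and GINS2 (adjusted p 0.0512 to 0.0733). CDKN1A, which encodes p21, averaged 10.3 ± 10.2 CPM in resistant and 13.5 ± 13.8 CPM in control libraries and was not called (adjusted p = 0.339).

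Of 14 chromatin cofactors that bind RB, 2 were lower, with a list median of -0.02. SUV39H1, a histone H3 methyltransferase, had 10.4, 11.8 and 13.4 CPM in resistant replicates and 22.1, 34.8 and 25.4 CPM in control replicates (log2 fold change -1.20 ± 0.14 SE, adjusted p = 0.00224). RBBP7, a histone-binding protein, averaged 228 ± 48.3 CPM in resistant and 423 ± 62.8 CPM in control libraries (log2 fold change -0.90 ± 0.11 SE, adjusted p = 0.00224). For both genes the groups did not overlap. The DREAM complex, which holds MuvB, represses cell cycle genes in resting cells. Of 9 genes listed for DREAM and MuvB, some, such as MYBL2, FOXM1 and DYRK1A, are not parts of that repressor. None of the 9 was called with edgeR, DESeq2 or limma voom, and 2 had an unadjusted p under 0.05 in each. The most abundant gene of the list, RBBP4, averaged 517 ± 50.7 CPM in resistant and 512 ± 46.1 CPM in control libraries, and the list median was -0.03.

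Among 10 genes of cyclin and inhibitor turnover 1 rose, USP2, a deubiquitinase known to stabilise cyclin D1, by 0.48 on the log2 scale (adjusted p = 0.0325), and the list median was -0.02. Among 12 upstream regulators of CCND1 and CDKN1B 1 rose, the transcription factor ETS2, by 0.40 (adjusted p = 0.0414), and the list median was -0.05. Leaving out control replicate 1, resistant replicate 1 or resistant replicate 3 ended the call of USP2 (up to 0.172). ETS2 lost it without each single library except control replicate 2 (up to 0.206) and under the replicate block (0.0637).

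Of the pathway genes called lower, 6 lay among neighbours that were lower too. Of the 10 genes called lower, 3 lie on chromosome 6 (E2F3, CCND3 and MCM3), 3 on chromosome X (POLA1, RBBP7 and SUV39H1) and 4 elsewhere. For each gene the 20 nearest tested genes were taken. Their median log2 fold change was -0.58 around E2F3, -0.73 around CCND3 and -0.50 around MCM3, and 17, 15 and 9 of the 20 were called lower. It was -0.65 around POLA1, -0.74 around RBBP7 and -0.72 around SUV39H1, with 13, 16 and 14 called lower. Low neighbours were not particular to called genes. The median was -0.75 around CDKN1A, -0.31 around ARID4B and -0.25 around FOXO3, with 15, 8 and 7 called lower. Those genes had log2 fold changes of -0.34, -0.02 and -0.02 and were not called. Around GINS2, CCNA2 and CDKN2C the neighbours had medians of 0.06, 0.18 and 0.07, and around CDKN2D -0.16. Around E2F1 the median was -0.15 with 2 of 20 called lower, and around the other 9 members it lay between -0.15 and 0.13. The part of the neighbourhood in these calls was not tested.

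**Figure D4:**
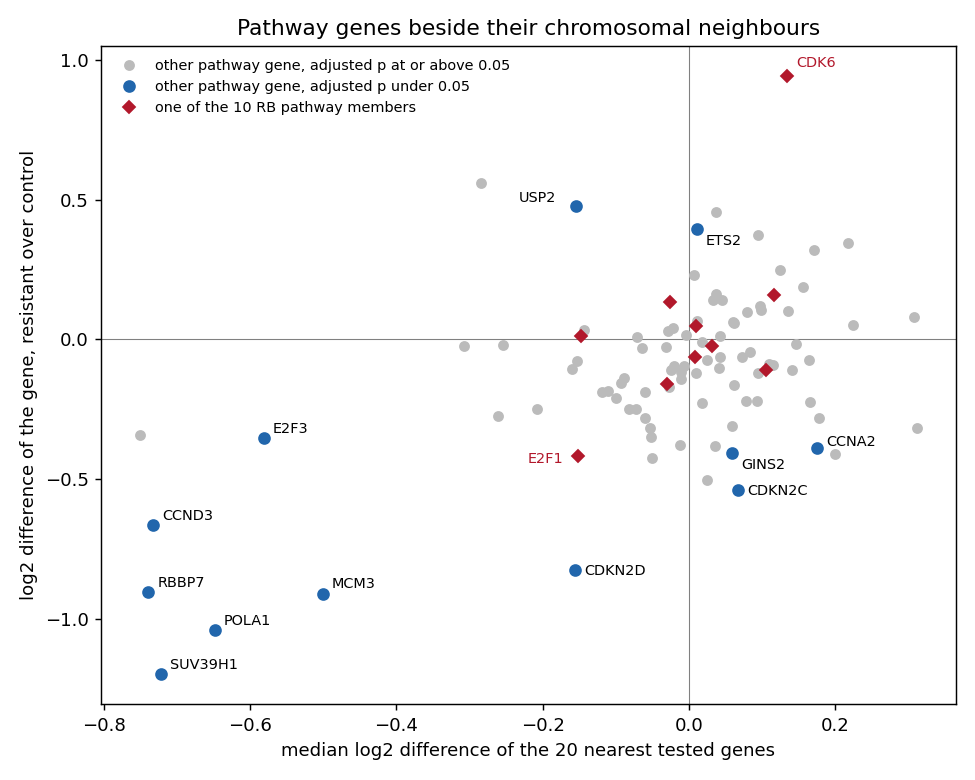
Log2 fold change of each tested pathway gene (resistant over control) against the median of its 20 nearest tested genes. Diamonds are the 10 RB pathway members, blue circles the other pathway genes called and grey circles those not called. E2F3, CCND3, MCM3, POLA1, RBBP7 and SUV39H1 sat at neighbour medians between -0.74 and -0.50, while CDK6 and E2F1 sat at 0.13 and -0.15.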

How the data were processed

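RNA of 3 resistant and 3 control samples was sequenced after capture with exome probes, so untranslated and non-coding parts are counted less completely. The deposited file holds raw counts per Entrez gene, 1 column per library, which the authors had not normalised. Per the submitters' processing notes, the tools were Trimmomatic 0.38, STAR 2.7.8a, Subread and featureCounts, on GRCh38. How strand and reads with several matches were handled, and which annotation was used, is not stated there, so overlapping and near-identical genes can exchange reads. Intervals and floors cover counting error only.

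Names and positions came from a RefSeq table of GRCh38.p14, which matched 27745 of 28395 IDs. Genes were filtered with filterByExpr by group (13950 kept), scaled by TMM and tested with edgeR 4.0.16 by a quasi-likelihood test with robust estimation and the batch as a term, which leaves 3 residual degrees of freedom. SE is derived from the F statistic. Within-batch differences use log2 CPM with a prior count of 2. Coding and exon lengths are unions over GENCODE 29 protein-coding transcripts. Alternatives used DESeq2 1.42.0 and limma 3.58.1. The test was checked on simulated counts.

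The members and lists were chosen with earlier results of these data known. Named genes are the 10 members, up to 3 called genes in each direction per list that average 1 CPM or more (where none was called, the most abundant gene), called neighbours among the 5 nearest protein-coding genes on either side, overlapping genes, and the 2 genes most like each called member. Others given for context (SMAD4, markers and neighbours without a call, CDKN1A, CDK7, CCND2, CDK3, ARID4B, FOXO3, and genes compared with the G1/S list) were chosen after their values were seen.

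Pairs of libraries of 1 group differed beyond sampling error (chi-square divided by its degrees of freedom was 70 to 215.3), so each was counted once. Nothing in the labels ties the replicates to separate cultures, and p-values therefore measure only the spread among the 6 libraries, which may be technical. Deviations from the group mean of resistant and control libraries with the same number in the labels correlated at 0.729, 0.143 and 0.155, and crossed numbers within 2021 at 0.57 and 0.477. By a rule that asks for all 3 to be over 0.1 the numbers were taken as pairs, and a replicate block was fitted as an alternative. Within 2021, however, the crossed numbers correlated more than the matched ones (0.143 and 0.155). The 0.729 of number 1 cannot be told apart from the batch. These correlations do not favour pairing by number, so a call that ended under the replicate block depends on that choice of pairs. Some neighbouring genes are not reported here by name.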

Additional observations from a re-analysis of the deposited data

How the results depend on the processing

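The direction of CDK6 and E2F1 was the same in all 16 alternatives. Over all genes 1633 were called, with 362 when the batch term was left out, 1012 in the 2021 batch alone and 617 to 1985 when 1 library was left out. Of the 10 members 2 were called, with 0 without the batch term (edgeR, where 0 had an unadjusted p under 0.05; DESeq2 and limma voom with the batch called 2), 1 in the 2021 batch alone and 1 to 2 without 1 library. CDK6 was called in 15 of 16 alternatives and E2F1 in 10. Besides the settings given above, E2F1 lost its call in the 2021 batch alone (adjusted p = 0.0906) and without the batch term (0.362). Of the other pathway genes 12 were called, with 20 by DESeq2, 3 without the batch term, 7 with the replicate block and 4 to 16 without 1 library. Limma voom ended the calls of E2F3, CCNA2 and CDKN2C (adjusted p 0.0503 to 0.0511). The replicate block gave 1303 calls over all genes, kept both calls among the 10 members, and among the named genes ended no call other than those given above. Members that were not called could change sign: CCNE1 was 0.016 with upper quartile scaling and 0.00030 with a minimum mean of 1 CPM, and in 2021 alone RB1 was -0.069, RBL1 0.018 and CCND1 -0.13. Without 1 library these ran from -0.075 to 0.019 for CCNE1, -0.0795 to 0.093 for RB1, -0.16 to 0.018 for RBL1 and -0.14 to 0.12 for CCND1. Upper quartile scaling gave 951 higher and 636 lower calls, against 869 and 764. Estimation without robust weights, added after the data were seen, gave 1604 calls. RB1, at 79 to 142 counts per library, had an SE of 0.22 on the log2 scale, against 0.09 to 0.14 for the other members.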
